A study of Homo sapiens with 6 samples.

Results

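Fatty acid transport proteins (the SLC27 family, SLC27A1 to SLC27A6) and fatty acid binding proteins (FABP3, FABP5, FABP6 and FABP7) were examined in cells labelled HepG2, a human liver cancer line, with and without cationic liposomes (CLs). The 10 genes were chosen by symbol, as members of these families, out of the 40205 gene symbols with a read count, and all 10 were found. RNA-seq was run on 3 control samples (Control-1 to Control-3), which received no CLs, and on 3 CLs-treated samples (CLs-1 to CLs-3), exposed for 24 h at 120 μM according to the sample labels. Values of a group are given below in the order of the sample numbers. The study's text gives that concentration in μM in one place and in μg/ml in others, and the unit could not be settled here. The CLs were made of the cationic lipid DOTAP, cholesterol and a PEG-linked lipid, so the treatment itself brought lipid to the cells. The study's text describes a medium with serum for HepG2 cells under its viability assay, and names no separate medium for the sequenced groups. It calls the samples independent, without saying in the labels or the text whether those of a group came from separate cultures. The p-values therefore measure the spread between these samples, which may be technical.

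Long-chain fatty acids enter cells with the help of membrane proteins and are then carried through the cytosol. SLC27 proteins are both transporters and acyl-CoA synthetases, since they couple uptake to the attachment of coenzyme A, which traps the fatty acid inside the cell. FABP proteins are small cytosolic carriers that hold a fatty acid, or in the case of FABP6 a bile acid, in a barrel-shaped pocket. In liver, SLC27A2 and SLC27A5 are the best known transporters, SLC27A5 also activates bile acids, and FABP1 is the main carrier.

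The label of the cell line was set against its markers. None of 18 hepatocyte and HepG2 markers had enough reads to be tested. ALB, the gene of albumin, had 8 reads in CLs-1 and was at 0 in each of the other 5, AFP had at most 1 read in any library, and TTR, APOH and APOC3 had 0 in all 6. The summed counts of the list were 6, 26 and 21 in the control samples and 182, 4 and 5 in the CLs-treated samples. FABP1, the liver carrier, had 0 reads in every library. The cells are therefore called here by their label only, since defining markers of liver cells were absent or nearly so. The totals were between 11418527 and 13998946 counts per sample. CLs-1 stood apart from the others with reads on some genes of other cell types. HBB, a globin gene of red blood cells, was at 324 counts there against at most 4 in any other library. STAR, a gene of steroid-producing cells, was at 290 against at most 3. Of the same lists, HBA2 and CYP11A1 were also high in CLs-1, at 118 and 151, while SLC4A1 was at 1 and CYP21A2 at 0. Some genes listed for other cell types were high in every library. COL3A1, from the fibroblast list, had 7456 to 11358 counts and ALPI, from the enterocyte list, 3085 to 11601. Not all of either list went with them. Of the fibroblast genes, COL1A1 and PDGFRB also had reads in every library, at 764 to 2472 and 167 to 275 counts. Outside CLs-1, however, COL1A2, DCN and THY1 had at most 2, 5 and 1 counts and LUM had 0. Of the enterocyte genes, VIL1 and LCT had at most 2 and 1 counts in any library, and CDX2 and SI had 0. The summed level of 6 epithelial markers was 5770 to 6377 CPM in the control samples and 2629 to 3491 CPM in the CLs-treated samples. This sum came almost wholly from the keratins KRT8, KRT18 and KRT7. Of the same list, CDH1 and EPCAM had at most 9 and 7 counts in any library and KRT19 at most 61, each highest in CLs-1. The part of these marker reads in the results below was not tested.

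For the SLC27 genes whose groups did not overlap in level, SLC27A6 and SLC27A4, the 300 bases around the annotated start are shown (RefSeq table, GRCh38.p14), because these are the members in which every treated sample lay under every control sample. For SLC27A4 that difference was small and far from passing the test. The build differs from hg19, which the submitters' processing notes name, so these positions are those of the sequence table and not of the counts. Capitals mark each match to the GC box GGGCGG on either strand.

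SLC27A6 promoter, chr5:128965238-128965537, plus strand: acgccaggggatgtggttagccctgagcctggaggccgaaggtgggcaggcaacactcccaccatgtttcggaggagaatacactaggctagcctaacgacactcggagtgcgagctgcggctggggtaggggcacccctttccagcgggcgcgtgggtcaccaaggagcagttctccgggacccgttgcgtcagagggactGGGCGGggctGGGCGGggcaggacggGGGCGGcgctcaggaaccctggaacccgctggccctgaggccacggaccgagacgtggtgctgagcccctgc

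SLC27A4 promoter, chr9:128340277-128340576, plus strand: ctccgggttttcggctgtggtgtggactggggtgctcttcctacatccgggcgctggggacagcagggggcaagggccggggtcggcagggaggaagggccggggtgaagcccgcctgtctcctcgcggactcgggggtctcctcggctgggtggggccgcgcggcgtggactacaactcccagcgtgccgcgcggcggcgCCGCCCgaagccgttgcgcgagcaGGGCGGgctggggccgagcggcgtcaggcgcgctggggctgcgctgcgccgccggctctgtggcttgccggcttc

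The SLC27A6 window held 3 GC boxes and the SLC27A4 window held 2, and 45.0% of all 35116 promoter windows of this length held at least 1. Of the 10 members, 9 had a window in the table, FABP5 being the other. The hexamer AGGTCA, which nuclear receptors such as PPARs bind in pairs, was absent on both strands from the windows of these 9 and present in 13.8% of all windows. The letters TATAAA occurred in FABP6 alone among the 9, against 11.5% of all windows. The SLC27A4 window was GC-rich at 75.7%, above 92.2% of all windows, while that of SLC27A6 was at 68.3%. The SLC27A5 window had 2 CG pairs against 38 in SLC27A4 and 22 in SLC27A6. These matches describe letters and not binding sites.

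Levels were compared between genes per length, as CPM (counts per 1000000 of the TMM-scaled library total) divided by the exon length in kb. SLC27A4, a transporter with broad expression, was the highest member at 28.7 ± 0.480 CPM per kb (SD, n = 3) in the control group. It lay above 80.3% of the tested genes that had an exon length from protein-coding transcripts. FABP3, the carrier best known from heart muscle, followed at 16.6 ± 2.86 CPM per kb and SLC27A2, a very long-chain acyl-CoA synthetase, at 14.2 ± 1.55 CPM per kb, and the control samples of these neighbours overlapped. SLC27A5 stood at 6.33 ± 0.384 CPM per kb and FABP5 at 2.46 ± 0.780 CPM per kb, and neither overlapped its neighbours in the order in the control group. SLC27A1, the transporter of muscle and fat, and SLC27A6, which is known from heart, were low, at 0.815 ± 0.482 and 0.606 ± 0.218 CPM per kb, with overlapping samples. SLC27A3 and FABP6 came last among the genes with reads, at 0.172 ± 0.0654 and 0.0992 ± 0.0996 CPM per kb, and FABP7, a carrier of neural cells, had no reads.

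**Figure D1:**
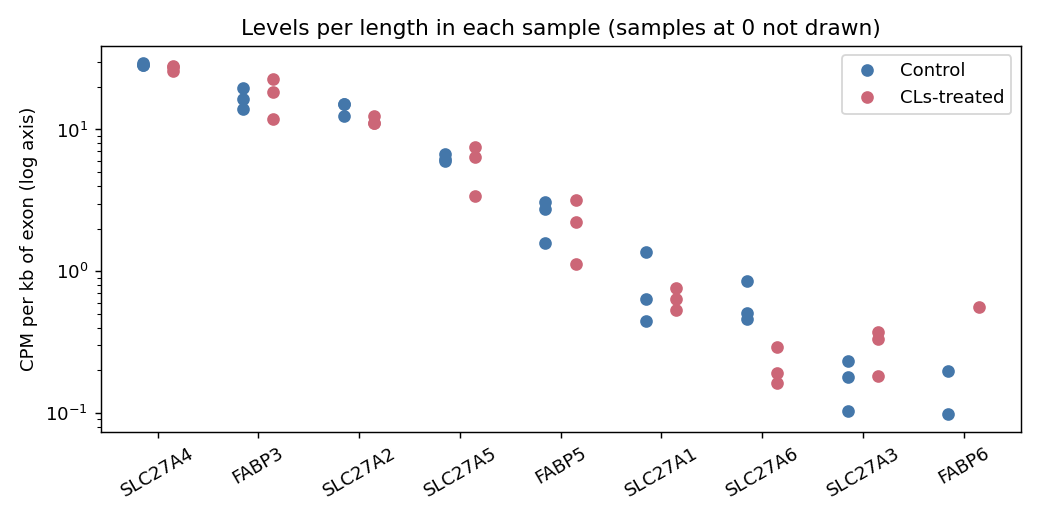
Level of 9 members in each sample, as CPM per kb of exon on a log axis, with genes ordered by their control mean (blue, control; red, CLs-treated; samples at 0 and FABP7 not drawn). The members span from 28.7 CPM per kb for SLC27A4 to 0.0992 CPM per kb for FABP6 in the control group, and SLC27A6 is the gene whose red points lie clearly under its blue points.

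The order in the CLs-treated group was the same down to SLC27A1. Below it, SLC27A3 had the higher mean, 0.297 CPM per kb, against 0.217 CPM per kb for SLC27A6, although their samples overlapped. The SLC27 reads came mainly from SLC27A4, which took 59.8% ± 0.982 of the family's reads in the control group and 62.7% ± 0.857 in the CLs-treated group (SD, n = 3). SLC27A2 took 26.1% ± 2.24 and 23.7% ± 2.84, and SLC27A5 10.3% ± 0.688 and 10.4% ± 3.49. The share of SLC27A6 was 1.31% ± 0.444 in the control group and 0.523% ± 0.160 in the CLs-treated group.

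To ask whether CLs changed the expression of these genes, edgeR's quasi-likelihood test was applied to the counts of the 15047 genes with enough reads. A gene passed when its fold change was above 1.5 or below 0.67 and its p-value after Benjamini-Hochberg adjustment was under 0.05. None of the 7 members with enough reads passed in either direction, and none passed in DESeq2's Wald test. With edgeR the same criteria were met by 0.0133% of all genes tested for an increase and by 0.0731% for a decrease. With DESeq2 they were met by 0.059% and 0.35% of 25420 genes. That larger set held genes with low counts, from which DESeq2's default filter can withhold an adjusted p-value, and such a gene could not pass. At an unadjusted p-value under 0.05 there was 1 member, SLC27A6, and 5.81% of all genes, 2.19% with higher and 3.62% with lower treated levels. Of the 7, 6 had a log2 fold change below 0 and the median was -0.16, against 47.9% below 0 and a median of 0.01 over all genes. These figures leave out 3 members and depend on the filter on low counts, since SLC27A6 passed it through its control samples and SLC27A3, at 0.80 without the filter, did not pass it. In 2 of the 10 members, SLC27A6 and SLC27A4, every CLs-treated sample lay under every control sample, which held for 6.18% of all genes tested. No member had its groups apart in the other direction, against 5.34% of all genes, and 11.5% of all genes were apart in either direction. In bulk RNA, fewer cells of a type and less RNA per cell cannot be told apart.

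**Figure D2:**
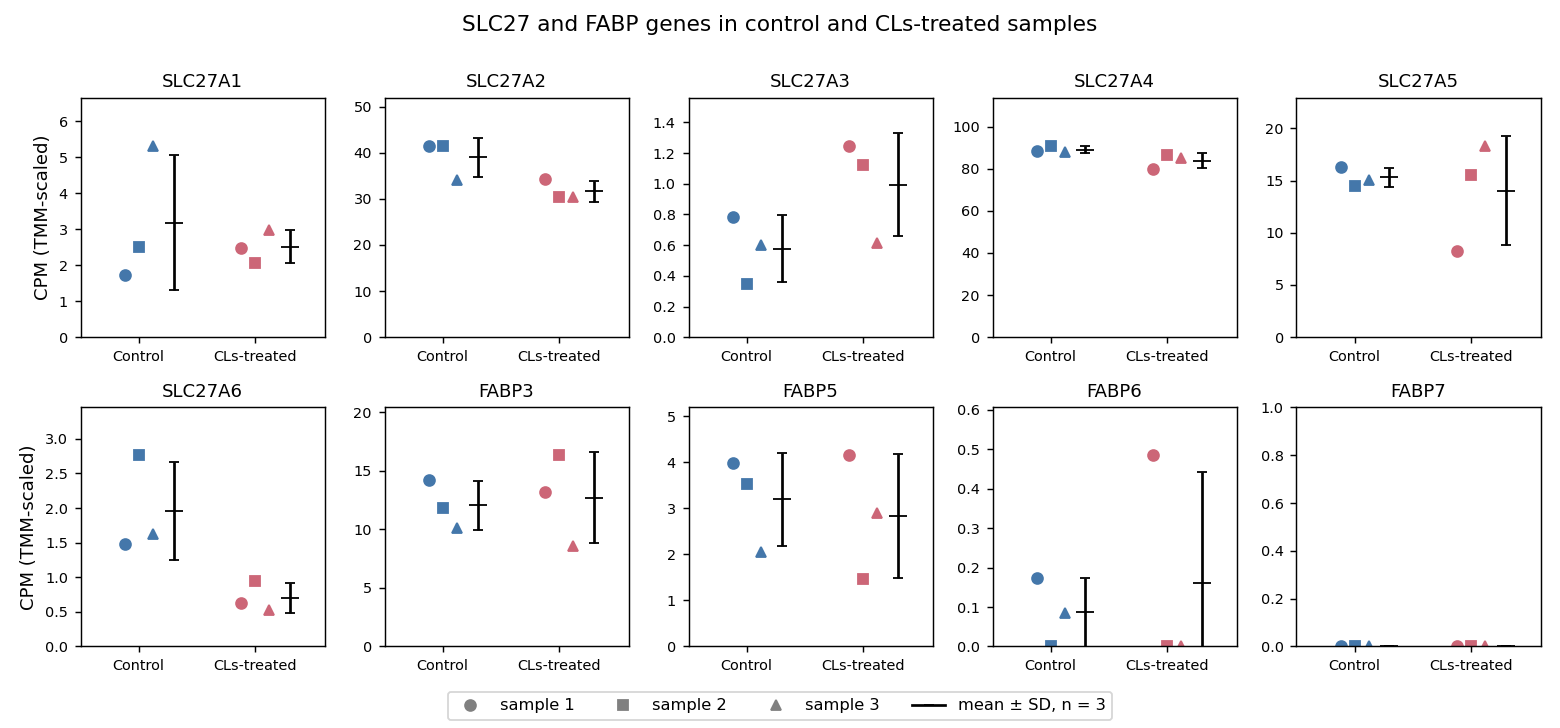
CPM of each of the 10 members in every sample, with 1 panel and 1 linear axis per gene (circle, square and triangle, samples 1, 2 and 3 of a group; black bars, mean ± SD, n = 3, cut at 0). The groups do not overlap for SLC27A6 and SLC27A4, the control point of SLC27A1 that lies highest is Control-3, and the treated point of SLC27A5 that lies lowest is CLs-1.

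SLC27A6 had the largest difference of the family. Its counts were 17, 32 and 19 in the control samples against 9, 11 and 6 after CLs, which is 1.48, 2.76 and 1.63 CPM against 0.623, 0.951 and 0.526 CPM. The highest CLs-treated sample, CLs-2, was thus under the lowest control sample, Control-1. The control mean was 1.96 ± 0.703 CPM and the treated mean 0.700 ± 0.223 CPM (SD, n = 3), a level 2.80 times higher in the control group. This was a log2 fold change of -1.48 with a standard error of 0.40 and a 95% interval from -2.36 to -0.59, and the adjusted p-value in edgeR's quasi-likelihood test was 0.327. By log2 fold change 31 of the 15047 genes were lower, while by p-value in the same test SLC27A6 ranked 164. Both ranks are among genes that passed the filter on low counts, which SLC27A6 passed through its control samples. The exact two-sided permutation test gave p = 0.10, the smallest that 3 samples against 3 allow. SLC27A6 is among the genes that the study itself named as down-regulated on these samples, so its direction here is not independent evidence. In the study's own test, EBSeq, the gene passed the fold change and false discovery rate criteria, unlike in the test used here. The study also lists SLC27A6 among the genes it measured by qRT-PCR, whose results it describes as almost comparable to RNA-seq.

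The depth limits this gene. A library needed about 0.854 CPM to count for the filter on low counts, and SLC27A6 passed it in 3 control samples but in 1 CLs-treated sample, so that it was tested because of the group where it was high. With every gene of at least 1 read tested, its log2 fold change was -1.47 and its adjusted p-value 0.143. Without Control-2, the control sample with the most SLC27A6 reads, the log2 fold change was -1.14 (edgeR adjusted p = 1.00). No other gene shared a stretch of 50 bases with the longest SLC27A6 transcript.

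The genes whose log2 CPM followed that of SLC27A6 most closely over the 6 samples were TPT1-AS1, FGFR3, PPP6R1, MVD and DAB2, with Pearson correlations between 0.979 and 0.984. Of 15046 genes compared, 0.778% had a correlation above 0.9, and these points share the same libraries and the same 2 groups. MVD, an enzyme of the mevalonate pathway, was at 34.4 ± 4.99 CPM in the control group and 18.8 ± 1.67 CPM in the CLs-treated group (SD, n = 3). On the log2 scale MVD differed by -0.87 (standard error 0.16, edgeR adjusted p = 0.0974). DAB2, an adaptor of clathrin-mediated endocytosis, was at 100.5 ± 7.16 and 71.0 ± 6.13 CPM. FGFR3 and PPP6R1 had log2 fold changes of -0.30 and -0.11, so that a high correlation did not go with a change of the same size. Among the members, the correlation with SLC27A6 was 0.829 for SLC27A4 and 0.759 for SLC27A2, and between 0.047 and 0.217 for the other 4 tested.

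SLC27A4, the most abundant transporter, was measured with the smallest spread. Its CPM was 88.5, 90.8 and 88.1 in the control samples and 79.8, 86.6 and 85.2 in the CLs-treated samples. The groups did not overlap, but the treated values lay close beneath the controls. Its log2 fold change was -0.09 with a 95% interval from -0.36 to 0.18 (edgeR adjusted p = 0.998). This interval lies inside the fold change criteria, so a change of SLC27A4 past them lay outside the interval.

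SLC27A2, which activates long and very long-chain fatty acids, had 41.4, 41.4 and 34.0 CPM in the control samples and 34.2, 30.3 and 30.3 CPM in the CLs-treated samples. The groups met between Control-3 and CLs-1, which were almost level. For SLC27A2 the log2 fold change was -0.30 (standard error 0.15, edgeR adjusted p = 0.872), with a 95% interval from -0.62 to 0.02. Without CLs-1 the value was -0.36 and the adjusted p-value 0.510.

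SLC27A5, the bile acid and very long-chain acyl-CoA synthetase of liver, had 16.3, 14.5 and 15.1 CPM in the control samples and 8.24, 15.6 and 18.3 CPM in the CLs-treated samples. The control samples lay close together, and CLs-1 held the low value and CLs-3 the high one. For SLC27A5 the log2 fold change was -0.13 (standard error 0.26, edgeR adjusted p = 0.998) with a 95% interval from -0.70 to 0.44. Without CLs-1, the library with globin and STAR reads, it turned to 0.15 (adjusted p = 0.831).

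SLC27A1 had 1.74, 2.50 and 5.32 CPM in the control samples and 2.49, 2.07 and 2.98 CPM in the CLs-treated samples. The spread came from Control-3, with 62 of the 205 reads of the gene. Its log2 fold change was -0.34 (standard error 0.40, edgeR adjusted p = 0.998), and without Control-3 it was 0.24 (adjusted p = 0.998).

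SLC27A3, an acyl-CoA synthetase with little known transport activity, had 9, 4 and 7 counts in the control samples and 18, 13 and 7 counts after CLs, and did not pass the filter. CLs-1 and CLs-2 were above the controls in CPM, and CLs-3 was level with Control-3 and under Control-1. Tested without the filter, its log2 fold change was 0.80 (standard error 0.52, edgeR adjusted p = 0.885) with a 95% interval from -0.25 to 1.85. Its reads are uncertain, since 12.3% of the 50-base stretches of its longest transcript also occur in INTS3, the neighbouring gene on the same strand.

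**Figure D3:**
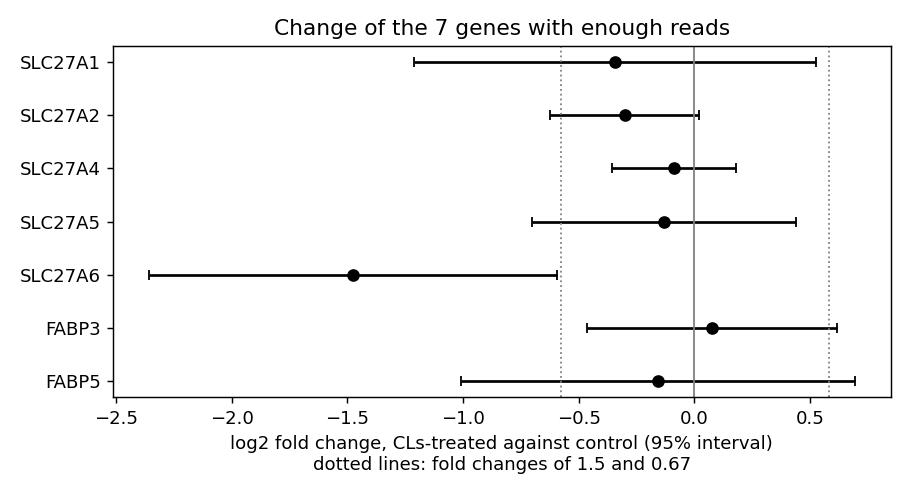
Log2 fold change of the 7 members with enough reads, CLs-treated against control, with 95% intervals from edgeR's quasi-likelihood fit (solid line, no change; dotted lines, fold changes of 1.5 and 0.67). SLC27A6 lies at -1.48 with an interval that ends at -0.59, and the other 6 intervals reach across 0.

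Of the binding proteins, FABP3 was the highest. It had 14.2, 11.8 and 10.1 CPM in the control samples and 13.2, 16.3 and 8.59 CPM in the CLs-treated samples. The treated samples included both the highest and the lowest value. For FABP3 the log2 fold change was 0.08 (standard error 0.25, edgeR adjusted p = 0.998), with a 95% interval from -0.46 to 0.62. The 6 striated muscle markers read beside it had summed counts of 17 to 68 per library, and MB, the gene of myoglobin, held most of them with 17, 14 and 67 counts in the control samples and 22, 29 and 50 in the CLs-treated samples. CKM was at 0 in all libraries, and MYH7, MYL2, TNNT2 and ACTN2 had at most 5 counts in any. Their part in the FABP3 level was not tested.

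FABP5, a carrier of epithelial cells, had 46, 41 and 24 counts in the control samples and 60, 17 and 33 counts in the CLs-treated samples. The groups overlapped widely. Its log2 fold change was -0.16 (standard error 0.39, edgeR adjusted p = 0.998). However, its reads could have been split with processed copies of the gene, and 31.3% of the 50-base stretches of its longest transcript also occur in other genes, 29.6% in the pseudogene FABP5P7. FABP5P7 carried 40.2 ± 12.6 CPM in the control group and 41.9 CPM on average in the CLs-treated group, far more than FABP5 itself at 3.20 ± 1.01 and 2.84 ± 1.34 CPM. The level of FABP5 therefore depends on how such reads were assigned, and its place in the order of levels is uncertain.

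With FABP5 and its 14 pseudogenes summed, the values were 63.0, 43.0 and 34.2 CPM in the control samples and 46.2, 47.8 and 53.2 CPM in the CLs-treated samples. The controls enclosed the treated samples. The log2 fold change of the sum was 0.069 (standard error 0.20, edgeR adjusted p = 0.998), an alternative chosen after the data were seen.

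**Figure D4:**
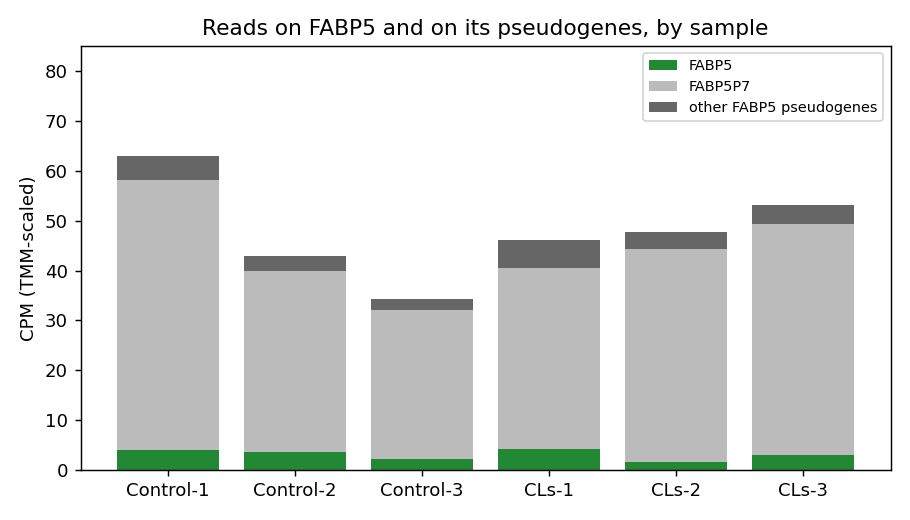
CPM in each of the 6 samples on FABP5 (green), on its pseudogene FABP5P7 (light grey) and on the other FABP5 pseudogenes (dark grey), stacked from 0. FABP5P7 takes most of each bar, and the summed height runs from 34.2 CPM in Control-3 to 63.0 CPM in Control-1.

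FABP6, the bile acid carrier of the ileum, had 2, 0 and 1 counts in the control samples and 7, 0 and 0 counts in the CLs-treated samples. Its 7 reads in CLs-1 were the only value above 3 counts, and that library also held the globin and STAR reads. Their part in FABP6 was not tested. FABP7 had 0 counts in all 6 libraries, where 3 counts, the upper limit that a count of 0 allows, correspond to 0.208 to 0.263 CPM, counting error only. FABP2 and FABP4, the carriers of enterocytes and of fat cells and macrophages, were at 0 in all 6 libraries as FABP1 was.

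The other genes of fatty acid and bile acid handling were read from 8 lists with 81 genes, all found among the symbols, of which 38 had enough reads. None of the 38 passed in edgeR's quasi-likelihood test, 7 had an unadjusted p-value under 0.05, which held for 5.81% of all genes, and the median log2 fold change was -0.03 against 0.01 over all genes. Among the 38, the groups were apart in 4 genes with higher treated samples and in 5 with lower ones, against 5.34% and 6.18% of all genes tested.

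At the cell surface, all 5 genes tested had a log2 fold change below 0, with a median of -0.22 over the list. CAV1, the main protein of caveolae, was at 220.5, 198.9 and 210.6 CPM in the control samples and 149.9, 146.7 and 170.4 CPM in the CLs-treated samples. Every treated sample lay under every control sample. The log2 fold change of CAV1 was -0.43 (standard error 0.13, edgeR adjusted p = 0.392). MFSD2A, a transporter of lysophospholipids that carry long-chain fatty acids, was at 2.68 ± 0.840 and 1.34 ± 0.660 CPM (SD, n = 3), or -1.01 on the log2 scale (standard error 0.40, adjusted p = 0.746). CD36, the best known fatty acid receptor outside the SLC27 family, had 4, 0 and 0 counts in the control samples and 9, 1 and 0 in the CLs-treated samples, and was picked after its values were seen.

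Of the 18 acyl-CoA synthetases outside the SLC27 family, 7 were tested, 3 above and 4 below 0. ACSS2, which makes acetyl-CoA from acetate, was at 22.5, 27.1 and 31.4 CPM in the control samples and 12.7, 12.8 and 15.9 CPM in the CLs-treated samples. All treated samples were thus clearly under the controls. The log2 fold change of ACSS2 was -0.97 (standard error 0.18), with an adjusted p-value of 0.0974 in edgeR's quasi-likelihood test. ACSL4, which prefers arachidonic acid, was at -0.37 on the log2 scale (standard error 0.17, adjusted p = 0.865).

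In the carnitine shuttle, which carries fatty acids into mitochondria, 7 of 8 genes were tested and the median log2 fold change was 0.11. SLC25A20, the carnitine carrier of the inner membrane, was at 16.0, 14.4 and 12.9 CPM in the control samples and 22.9, 22.4 and 28.3 CPM in the CLs-treated samples. Every treated sample lay above every control sample, and the log2 fold change was 0.76 (standard error 0.17, edgeR adjusted p = 0.201). SLC22A5, the carnitine uptake transporter of the plasma membrane, had the opposite sign at -0.50 (standard error 0.18, adjusted p = 0.662). CPT1A and CROT, which were picked after their values were seen, also had their treated samples above all controls, with log2 fold changes of 0.42 and 0.45 (adjusted p = 0.626 and 0.860).

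Among the acyl-CoA thioesterases, ACOT13 had a log2 fold change of 0.41 and ACOT2 of 0.18, with adjusted p-values of 0.637 and 0.998, and 5 of the 7 tested were below 0. In the peroxisomal ABC transporters ABCD3 and ABCD4 were at 0.12 and 0.10, and 1 of the 3 tested was below 0. In the carrier proteins of acyl-CoA and sterols, SCP2 was at 0.16 and ACBD4 at -0.37, and the median of the 7 was -0.08. None of these 6 genes passed the test.

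For bile acids, the pathway of SLC27A5 and FABP6, AMACR, a racemase of bile acid side chains, was the only 1 of 14 genes with enough reads, with a log2 fold change of 0.17 (edgeR adjusted p = 0.998). BAAT, which joins bile acids to amino acids after SLC27A5 has activated them, had 0, 3 and 5 counts in the control samples and 6, 1 and 0 in the CLs-treated samples. CYP7A1, the rate-limiting enzyme of bile acid synthesis, had at most 2 counts in a library, and SLC10A1, the bile acid importer of hepatocytes, had 0 in all 6. These 3 genes were picked after their values were seen. Reads of SLC27A5 were present in all libraries, while these genes had few or none.

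Of the other intracellular lipid-binding proteins, the wider family of the FABP genes, CRABP2 was the only 1 of 12 with enough reads, at 1.38 ± 0.226 and 1.25 ± 0.490 CPM (SD, n = 3).

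**Figure D5:**
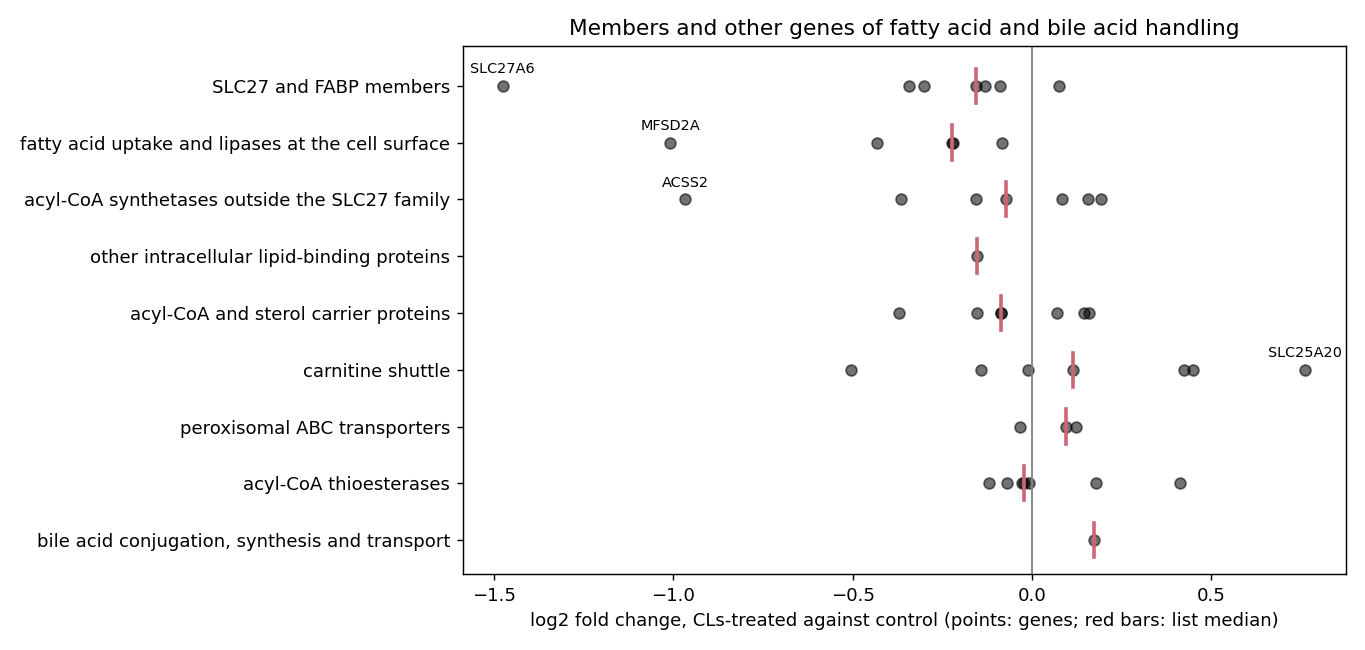
Log2 fold change, CLs-treated against control, of the tested members and of the tested genes of 8 lists of fatty acid and bile acid handling (points, genes; red bars, median of each list). SLC27A6, MFSD2A and ACSS2 lie lowest, at -1.48, -1.01 and -0.97, and SLC25A20 highest, at 0.76.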

How the data were processed

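Total RNA of 6 samples was sequenced on an Ion Proton instrument from single-end libraries. The authors mapped filtered reads with MapSplice and deposited the count of reads per gene symbol, without normalization or pooling. The submitters' processing notes also name HTSeq 0.6.1 and hg19 (GRCh37). How strand and multiply mapped reads were treated is not given in the sources used here. Exons of SLC27A5, FABP6, SLC27A1 and FABP5 overlap another gene on the opposite strand, by 195, 109, 88 and 14 bases. The part of these overlaps in the counts was not tested.

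From the counts, edgeR 4.0.16 in R 4.3.3 was run with filterByExpr (minimum count 10), TMM scaling and the quasi-likelihood F test (condition as the only term), with Benjamini-Hochberg adjustment over 15047 genes. Standard errors were derived from the F statistic. The script was tested on simulated data. Alternatives were DESeq2 1.42.0, each sample left out in turn, a block for the replicate number, and other scalings and filters. Exon lengths and shared 50-base stretches came from GENCODE release 29, promoters from RefSeq.

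The members and lists were chosen with earlier results of these data known. Genes named outside the members were, per list, the 2 with the largest absolute log2 fold change, the 5 most correlated with SLC27A6, pseudogenes, FABP1, FABP2, FABP4 and markers, and a gene named outside this rule is marked as such. The precision rested on totals of 11418527 to 13998946 counts and on the spread between the samples of a group.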

Additional observations from a re-analysis of the deposited data

How the results depend on the processing

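No member passed the criteria under any of the alternatives run, DESeq2 and the replicate block included. SLC27A6 stayed below 0 in all 13 alternatives, between -1.74 and -1.14, with adjusted p-values between 0.143 and 1.00. The sign changed when 1 sample was left out for SLC27A1 (range -0.64 to 0.24), SLC27A5 (-0.37 to 0.15), FABP3 (-0.14 to 0.29) and FABP5 (-0.55 to 0.15). The libraries that turned it were Control-3 for SLC27A1, CLs-1 for SLC27A5, Control-3 (-0.03) and CLs-2 for FABP3, and Control-1 (0.04) and CLs-2 for FABP5. With FABP5 summed with its pseudogenes, its log2 fold change was 0.069, the opposite sign. SLC27A2 and SLC27A4 kept their sign. The number of members with groups apart ranged from 0 to 1 for higher, which was SLC27A3 without Control-1 or CLs-3, and from 2 to 3 for lower, where SLC27A2 joined without Control-3 or CLs-1.

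Over all genes, 2 were up-regulated and 11 down-regulated in the main test. The counts were 15 and 89 with DESeq2's Wald test, 58 and 113 when genes with low counts were kept, 12 and 56 under the replicate block, and 6 down-regulated with library size only. With 1 sample left out they ranged from 1 to 3 and from 2 to 6.

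Samples with the same number had correlations of deviations of 0.111, 0.0987 and 0.305, so not every pair was above 0.1 and the number was not taken as a pairing, although every sample correlated best with its own number. With the replicate block, SLC27A6 was at -1.46 (adjusted p = 0.152) and ACSS2 passed (adjusted p = 0.0193). SLC27A3, FABP6 and FABP7 were limited by depth.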
